A study of Homo sapiens with 6 samples.

Results

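The 32 genes described here encode the folding and quality-control machinery of the endoplasmic reticulum (ER): its stress sensors, chaperones, disulfide isomerases, lectin chaperones, factors of ER-associated degradation (ERAD) and 3 genes of protein translocation and export. They were taken by symbol from a fixed list, each symbol matching 1 row of a count table of 63140 genes. The table held RNA sequencing counts from 6 libraries of HEK293 cells, an established line of human embryonic kidney origin with no engineered allele named in the labels. In the treated group, 3 libraries came from confluent cells given 100 nM GSK-A1 for 24 h, and in the control group 3 came from cells given dimethyl sulfoxide (DMSO). GSK-A1 blocks the lipid kinase encoded by PI4KA, which makes the phosphatidylinositol 4-phosphate pool of the plasma membrane. With 1 compound, 1 dose, 1 time and 1 line, effects of GSK-A1 on other targets cannot be told apart from those of the kinase. The labels name the replicates as biological and do not say how the cultures were kept separate, so p-values measure the spread between these libraries.

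Proteins of the secretory pathway enter the ER through the SEC61 channel, where chaperones of the Hsp70 and Hsp90 families, disulfide isomerases and sugar-binding chaperones fold them. Those that fail are sent back across the membrane by the HRD1 complex for degradation by the proteasome, and those that pass leave in COPII-coated vesicles. When unfolded protein accumulates, the sensors ATF6, IRE1 (the ERN1 product) and PERK (the EIF2AK3 product) start the unfolded protein response, in which ATF6 and XBP1 act as transcription factors on many of these same genes.

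The DNA element through which ATF6 and XBP1 are known to act, the ER stress response element (ERSE), was looked up in the promoters as a guide to which members share it. Windows of 300 bases, most of each lying upstream of a RefSeq start site (GRCh38.p14), were held for 28 of the 32 members. ERSE was searched as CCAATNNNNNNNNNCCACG on both strands. It was found in 8 of those 28 genes (28.6%), counting a gene if any of its windows matched (37 windows in all). Among single windows of all genes it was found in 27 of 35116 (0.0769%). The member share counts genes and the other share counts windows. ATF6 and XBP1 act on many of these genes, so a higher share was built into the list. The 8 genes were CALR, CANX, CRELD2, ERO1B, HSP90B1, HSPA5, PDIA6 and XBP1. The related ERSE-II, searched as ATTGGNCCACG on both strands, was found in HERPUD1, HYOU1 and SDF2L1 and in 19 windows of all genes (0.0541%). Another element, the core of the unfolded protein response element (TGACGTGG, both strands), was found in HYOU1 alone among the members and in 256 windows of all genes (0.729%). These elements share the letters CCACG on 1 strand or the other, so a stretch can match more than 1 of them. HYOU1 was the only member with matches to more than 1 element, and whether its matches overlap was not tested. A match is a description of the letters and not evidence of binding. HSPA5 is shown because its promoter is the standard example of the element, and XBP1, HERPUD1 and CRELD2 because their transcripts moved in different directions. The capitals mark the exact ERSE match in HSPA5 (chr9:125241294-125241593, minus strand), XBP1 (chr22:28800520-28800819, minus strand) and CRELD2 (chr22:49918384-49918683, plus strand, where the match lies on the reverse strand), and the exact ERSE-II match in HERPUD1 (chr16:56931892-56932191, plus strand). Another XBP1 window (chr22:28800028-28800327, minus strand) held no match to either. Inexact matches were not searched for.
HSPA5: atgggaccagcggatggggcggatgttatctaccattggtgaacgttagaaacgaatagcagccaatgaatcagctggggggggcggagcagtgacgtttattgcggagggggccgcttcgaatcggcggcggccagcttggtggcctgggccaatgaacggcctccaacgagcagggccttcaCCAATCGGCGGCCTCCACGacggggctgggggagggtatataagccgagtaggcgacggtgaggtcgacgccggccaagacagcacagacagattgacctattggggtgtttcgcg
XBP1: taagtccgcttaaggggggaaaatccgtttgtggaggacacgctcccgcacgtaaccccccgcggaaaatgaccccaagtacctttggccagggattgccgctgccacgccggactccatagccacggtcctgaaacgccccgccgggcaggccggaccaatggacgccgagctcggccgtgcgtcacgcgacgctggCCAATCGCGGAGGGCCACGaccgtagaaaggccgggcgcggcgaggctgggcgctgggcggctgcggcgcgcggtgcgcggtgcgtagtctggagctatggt
CRELD2: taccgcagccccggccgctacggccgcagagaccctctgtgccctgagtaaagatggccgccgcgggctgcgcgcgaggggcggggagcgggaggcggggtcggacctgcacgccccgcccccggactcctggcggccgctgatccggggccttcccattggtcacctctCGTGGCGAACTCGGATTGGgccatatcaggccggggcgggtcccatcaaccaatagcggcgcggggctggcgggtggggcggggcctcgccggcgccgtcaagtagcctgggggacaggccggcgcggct
HERPUD1: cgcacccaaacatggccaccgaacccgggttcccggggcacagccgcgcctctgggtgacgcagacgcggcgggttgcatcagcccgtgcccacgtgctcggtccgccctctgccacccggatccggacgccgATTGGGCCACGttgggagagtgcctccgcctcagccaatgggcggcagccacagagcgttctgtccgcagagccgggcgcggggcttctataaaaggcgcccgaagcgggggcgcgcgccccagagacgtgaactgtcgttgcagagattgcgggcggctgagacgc

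Library totals ranged from 33040178 to 47777233 counts, and 24915 to 26382 genes had at least 1 count. Expression is given as normalised counts (CPM), the share of the library total on a fixed scale, with library factors from the trimmed mean of M values (TMM) that lay between 0.9934 and 1.0043. All 6 libraries carried the same lane label. Transcripts that mark HEK293 were present at the DMSO mean for VIM (1085 CPM), NEFL (715 CPM), KRT8 (147 CPM), KRT18 (109.9 CPM) and PAX2 (2.71 CPM), whereas NEFM was near absent (0.142 CPM). Markers of blood (PTPRC), endothelium (PECAM1) and liver (ALB) lay below 0.18 CPM in every library, and UMOD of mature kidney tubule had no count. The mRNA of the drug's target, PI4KA, was 187, 179 and 188 CPM in the controls and 182, 171 and 184 CPM in the treated libraries, with overlapping groups (log2 fold change -0.04 ± 0.04, edgeR adjusted p = 0.456). That mRNA level does not measure the activity of the inhibited enzyme.

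All 32 members passed the filter on low counts, with 324 to 49112 counts per library. After 24 h of GSK-A1, 14 of them changed at an edgeR adjusted p under 0.05, of which 9 rose and 5 fell. In bulk RNA, fewer cells that express a gene and less of its RNA per cell cannot be told apart. Over all 16754 genes tested, 3835 were called (22.9%), 2007 of them higher (12.0%) and 1828 lower (10.9%). Members are abundant transcripts, and among the 9302 tested genes at or above the lowest member's mean of 13.1 CPM the share called was 29.3%. Of those 9302 genes, 1702 were called higher and 1027 lower, so calls at that abundance also leaned upward. The libraries of the groups did not overlap in 22 of 32 members, against 40.5% of all genes and 4529 of the 9302. The median log2 fold change of the members was 0.07, against -0.01 over all genes tested and 0.02 over genes of at least the members' abundance. No called change exceeded 1 on the log2 scale, and the median size of a called change was 0.24. Scaling by upper quartiles shifted the median of all genes to -0.05 and that of the members to 0.03. Under it 6 members were called higher (background 7.99%) and 9 lower (background 16.0%), and 33.3% of all calls were higher in place of 52.3%. Calls also depended on the DMSO libraries, since 8 members were called without DMSO replicate 1 and 9 without DMSO replicate 2. Over all genes, 2163, 2213 and 2206 were called without DMSO replicate 1, 2 and 3.

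**Figure D1:**
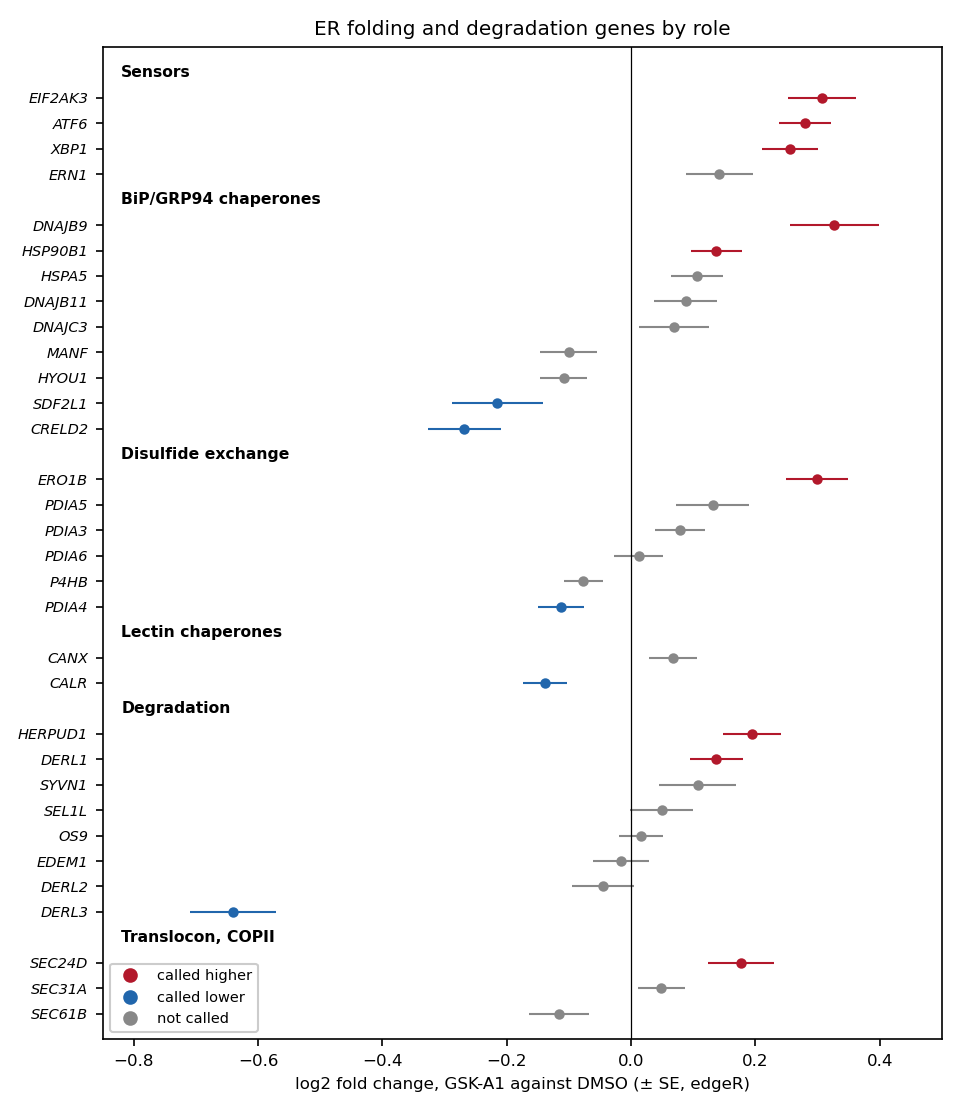
Log2 fold change of each of the 32 members, GSK-A1 minus DMSO (points, with bars of 1 standard error; n = 3 libraries per group), arranged by role and marked by whether the member was called at an edgeR adjusted p under 0.05. The values run from -0.64 in DERL3 to 0.33 in DNAJB9, and 3 of the 4 genes of the sensor group were called higher.

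The sensor group, which also holds the transcription factor XBP1, had 3 of 4 members higher and none lower. Its median log2 fold change was 0.27. Over all genes 12.0% were called higher, and at the members' abundance 1702 of 9302. The share called was the largest of the groups by role, all of which hold few genes. ATF6 (ENSG00000118217), the membrane-bound transcription factor that is cleaved in the Golgi on ER stress, was at 81.1, 85.6 and 82.1 CPM in the DMSO libraries, given throughout in the order of replicates 1 to 3. The GSK-A1 libraries, in the same order, had 101, 105 and 96.2 CPM. Every treated library lay above every control, a rise of 21.4% (log2 fold change 0.28 ± 0.04, SE; edgeR adjusted p = 0.000248). EIF2AK3 (ENSG00000172071), which encodes the eIF2α kinase PERK, was at 23.9, 24.5 and 24.4 CPM with DMSO and at 28.4, 32.1 and 29.7 CPM with GSK-A1. The control libraries lay within 1 CPM of each other and the treated ones clear above them, a rise of 23.7% (0.31 ± 0.05, edgeR adjusted p = 0.00091). XBP1 (ENSG00000100219), whose mRNA is the splicing substrate of IRE1, was at 90.1, 85.4 and 89.1 CPM with DMSO and at 103, 112 and 101 CPM with GSK-A1. It rose by 19.3% without overlap (0.26 ± 0.04, edgeR adjusted p = 0.000793), and a count per gene does not separate its spliced from its unspliced form. ERN1 (ENSG00000178607), which encodes IRE1, was at 19.5, 19.3 and 19.0 CPM with DMSO and at 21.8, 21.4 and 20.6 CPM with GSK-A1. The groups did not overlap, but the difference did not pass the test (0.14 ± 0.05, edgeR adjusted p = 0.068). ERN1 passed when GSK-A1 replicate 2 was left out (edgeR adjusted p = 0.0415) and when the GC trend was removed (edgeR adjusted p = 0.0282).

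Among 9 chaperones and cochaperones, 2 rose and 2 fell. HSP90B1 (ENSG00000166598), the ER member of the Hsp90 family, was at 875, 902 and 909 CPM with DMSO and at 939, 1060 and 954 CPM with GSK-A1. Replicate 2 was the highest of the treated libraries, and all of them lay above the controls, a rise of 9.95% (0.14 ± 0.04, edgeR adjusted p = 0.0257). That call was lost under upper-quartile scaling and when any 1 DMSO library was left out, where the adjusted p reached 0.123. With GSK-A1 replicate 2 omitted the call held at a smaller 0.0848 (edgeR adjusted p = 0.0108). DNAJB9 (ENSG00000128590), a J-domain partner of BiP, was at 11.9, 12.0 and 10.9 CPM with DMSO and at 14.8, 15.6 and 13.4 CPM with GSK-A1. It rose by 25.4% with no overlap between groups (0.33 ± 0.07, edgeR adjusted p = 0.00398), within 1 SE of the rise of EIF2AK3. HSPA5 (ENSG00000044574), which encodes BiP, the ER Hsp70 that holds the sensors inactive, was at 313, 306 and 304 CPM with DMSO and at 329, 354 and 311 CPM with GSK-A1. GSK-A1 replicate 3 fell below DMSO replicate 1, and the difference did not pass the test (0.11 ± 0.04, edgeR adjusted p = 0.0827). Its value changed with single treated libraries: with GSK-A1 replicate 3 omitted it was called at 0.15 (edgeR adjusted p = 0.0134), and with replicate 2 omitted it was 0.06 (edgeR adjusted p = 0.113). HSPA5 was also called with no count filter (edgeR adjusted p = 0.0387), and upper-quartile scaling gave 0.0643.

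CRELD2 and SDF2L1, both induced in classical ER stress, were lower with GSK-A1. CRELD2 (ENSG00000184164), an ER protein with epidermal growth factor-like domains, was at 26.6, 25.6 and 27.7 CPM with DMSO and at 21.8, 20.8 and 23.7 CPM with GSK-A1. The treated libraries all lay below the controls, and it fell by 17.0% (-0.27 ± 0.06, edgeR adjusted p = 0.00387). SDF2L1 (ENSG00000128228), a partner of ER J-domain proteins, was at 19.2, 16.1 and 15.8 CPM with DMSO and at 14.4, 14.9 and 15.01 CPM with GSK-A1. DMSO replicate 1 was the highest library and the other controls lay less than 2 CPM above the treated ones. It fell by 13.9% (-0.22 ± 0.07, edgeR adjusted p = 0.0445), a call that held in 7 of 16 alternative settings and was lost without DMSO replicate 1 or 2, without GSK-A1 replicate 1 or 3 and with the GC trend removed. Without DMSO replicate 1 its value was -0.115. HYOU1 (ENSG00000149428), a large Hsp70 relative that exchanges nucleotide on BiP, was at 155, 147 and 152 CPM with DMSO and at 143, 136 and 142 CPM with GSK-A1. Its groups did not overlap, and it lay just outside the threshold (-0.11 ± 0.04, edgeR adjusted p = 0.0503). MANF, a secreted BiP-binding factor, gave -0.10 ± 0.05 (edgeR adjusted p = 0.12). The BiP cochaperones DNAJB11 and DNAJC3 gave 0.09 ± 0.05 and 0.07 ± 0.06 (edgeR adjusted p = 0.223 and 0.409). Both HYOU1 and MANF were called lower in the fit that omitted GSK-A1 replicate 2 (edgeR adjusted p = 0.0374 and 0.0326).

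**Figure D2:**
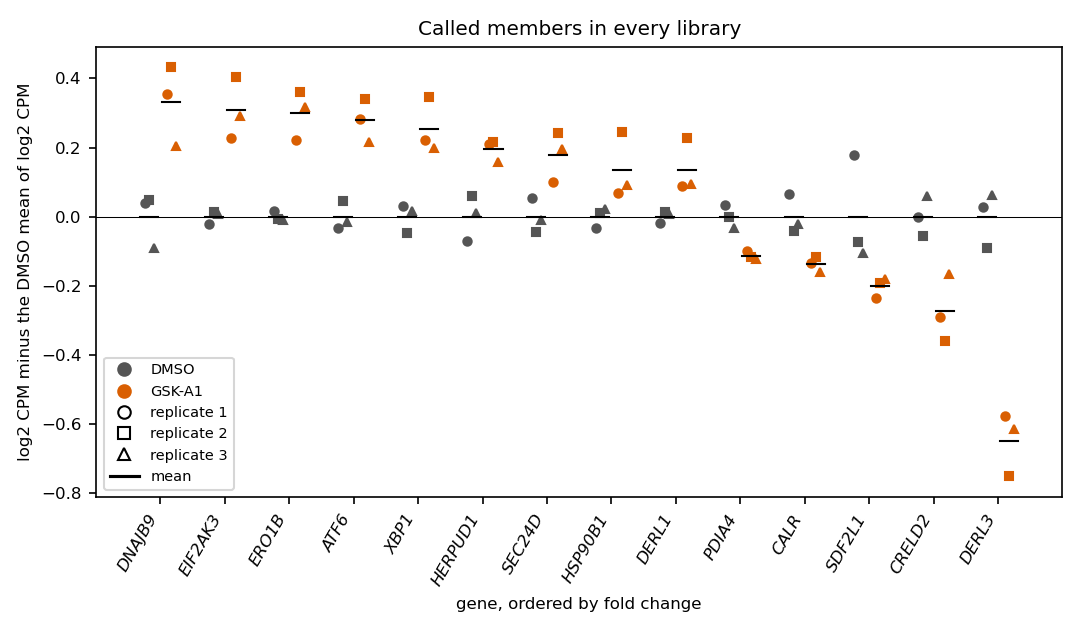
Each of the 14 called members in each library, as log2 CPM minus the mean of log2 CPM over the DMSO libraries (points, with a symbol for each replicate number; short bars mark group means, n = 3). For every gene the 3 GSK-A1 libraries lie on 1 side of the 3 DMSO libraries, and GSK-A1 replicate 2 is the highest library in all 9 members that rose.

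Of the 6 genes of disulfide bond formation, the oxidase ERO1B rose and the isomerase PDIA4 fell. ERO1B (ENSG00000086619), which reoxidises protein disulfide isomerase, was at 28.9, 28.5 and 28.4 CPM with DMSO and at 33.3, 36.7 and 35.6 CPM with GSK-A1. The controls were nearly equal and the treated libraries lay well above them, a rise of 23.0% (0.30 ± 0.05, edgeR adjusted p = 0.000586). PDIA4 (ENSG00000155660) was at 121, 118 and 115 CPM with DMSO and at 110.1, 109 and 108 CPM with GSK-A1. It fell by 7.54% without overlap (-0.11 ± 0.04, edgeR adjusted p = 0.0371), a small change that was called in 7 of 16 alternative settings. Omitting GSK-A1 replicate 2 kept that call, and omitting any of the other 5 libraries ended it, with an adjusted p up to 0.157. P4HB (ENSG00000185624), protein disulfide isomerase itself, was at 484, 484 and 488 CPM with DMSO and at 461, 456 and 464 CPM with GSK-A1. Its libraries varied little within a group and did not overlap between groups, but the difference did not pass the test (-0.08 ± 0.03, edgeR adjusted p = 0.0864). P4HB was called under upper-quartile scaling (-0.12, edgeR adjusted p = 0.0118) and a stricter count filter (edgeR adjusted p = 0.0482), and removal of the GC trend brought it to -0.02 (edgeR adjusted p = 0.663). PDIA3, the partner of the lectin chaperones, gave 0.08 ± 0.04 (edgeR adjusted p = 0.166). The isomerase PDIA5 gave 0.13 ± 0.06 (edgeR adjusted p = 0.12). PDIA6 gave 0.01 ± 0.04 (edgeR adjusted p = 0.861) and was negative in 3 alternative settings.

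The lectin chaperones hold glycoproteins through their trimmed sugar, CALR as a soluble protein and CANX as a membrane protein. CALR (ENSG00000179218) was at 499, 464 and 470.2 CPM with DMSO and at 435, 440.1 and 427 CPM with GSK-A1. All treated libraries were below all controls, and it fell by 9.13% (-0.14 ± 0.04, edgeR adjusted p = 0.0108). The call was lost without DMSO replicate 1 (edgeR adjusted p = 0.0796) and without GSK-A1 replicate 1 (edgeR adjusted p = 0.0586). CANX (ENSG00000127022) was at 1024, 1015 and 997 CPM with DMSO and at 1043, 1132 and 1006 CPM with GSK-A1. GSK-A1 replicate 3 lay within the controls, and the difference did not pass the test (0.07 ± 0.04, edgeR adjusted p = 0.226). Whether CALR and CANX differed from each other in their response was not tested.

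DERL3 had the largest change of any member. DERL3 (ENSG00000099958), a derlin of the channel through which misfolded proteins leave the ER, was at 16.3, 15.01 and 16.7 CPM with DMSO and at 10.7, 9.49 and 10.4 CPM with GSK-A1. The groups lay far apart relative to their spread, and it fell by 35.8% (-0.64 ± 0.07, edgeR adjusted p = 1.23e-05). Exons of SMARCB1 on the opposite strand cover 77% of its exonic length. SMARCB1 itself had means of 118 ± 1.4 CPM in the controls and 109 ± 2.4 CPM in the treated libraries (SD, n = 3), and it fell by less (-0.12 ± 0.04, edgeR adjusted p = 0.0315). The library kit keeps strand, but the strand setting of the counting is not given in the sources used here. A set of 212 genes was covered for at least 95% of exonic length by an opposite-strand gene of over 30 CPM. All were genes of few exons with no same-strand overlap. Their median level per kb was 0.138% of that of the covering gene, and 4 of them exceeded 10% of it. That median does not give the strand setting, and whether SMARCB1 reads entered the DERL3 count was not tested. With the GC trend removed DERL3 stood at -0.58 (edgeR adjusted p = 1.89e-06) and SMARCB1, called in 9 of 16 alternative settings, at -0.05 (edgeR adjusted p = 0.235). Among the other derlins, DERL1 (ENSG00000136986) was at 104, 107 and 106 CPM with DMSO and at 112, 124 and 113 CPM with GSK-A1, a rise of 9.96% without overlap (0.14 ± 0.04, edgeR adjusted p = 0.0286). That call was lost under upper-quartile scaling and without any 1 DMSO library (edgeR adjusted p up to 0.12). DERL2 was not called and overlapped between groups (-0.04 ± 0.05, edgeR adjusted p = 0.559). Differences between the derlins were not tested.

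The other degradation genes centre on the HRD1 ubiquitin ligase, which SYVN1 encodes. HERPUD1 (ENSG00000051108), which organises that complex and is a standard marker of ER stress, was at 41.4, 45.3 and 43.8 CPM with DMSO and at 50.3, 50.5 and 48.5 CPM with GSK-A1. It rose by 14.5% without overlap (0.19 ± 0.05, edgeR adjusted p = 0.007), and of the 16 alternative settings the one that left out DMSO replicate 1 ended the call (edgeR adjusted p = 0.0597). SYVN1 (ENSG00000162298) was at 44.4, 42.0 and 44.9 CPM with DMSO and at 49.4, 41.7 and 50.04 CPM with GSK-A1. Replicates 1 and 3 lay above all controls and replicate 2 below them, and the difference did not pass the test (0.11 ± 0.06, edgeR adjusted p = 0.23). In the absence of GSK-A1 replicate 2 it was called at 0.19 (edgeR adjusted p = 0.000189), and in the absence of replicate 3 it was 0.0664. The HRD1 adaptor SEL1L gave 0.05 ± 0.05, the substrate lectin OS9 gave 0.02 ± 0.04, and EDEM1, which marks glycoproteins for degradation, gave -0.02 ± 0.05. These 3 were not called (edgeR adjusted p = 0.524, 0.795 and 0.833), and their groups overlapped.

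Of the transport genes, SEC24D (ENSG00000150961), a cargo-binding subunit of the COPII coat, was at 30.2, 28.2 and 28.9 CPM with DMSO and at 31.2, 34.4 and 33.3 CPM with GSK-A1. GSK-A1 replicate 1 lay about 1 CPM above the highest control, and the rise was 13% (0.18 ± 0.05, edgeR adjusted p = 0.0233). The call was lost under upper-quartile scaling and without DMSO replicate 2 or 3 (edgeR adjusted p up to 0.119). SEC61B (ENSG00000106803), a subunit of the translocation channel, was at 44.6, 45.1 and 43.1 CPM with DMSO and at 42.6, 41.2 and 38.6 CPM with GSK-A1. Its groups did not overlap and the difference was not called (-0.12 ± 0.05, edgeR adjusted p = 0.0945), though it was without GSK-A1 replicate 2 (edgeR adjusted p = 0.0338). SEC31A, of the outer COPII coat, gave 0.05 ± 0.04 (edgeR adjusted p = 0.39).

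Levels were compared between genes only after division by transcript length, as CPM per kb of the longest transcript in the DMSO libraries. The order was led by HSP90B1 (295 ± 5.9 CPM per kb, SD, n = 3), CALR (251 ± 9.9), CANX (238 ± 3.3), P4HB (187 ± 1.0) and PDIA6 (101 ± 1.7). PDIA3 (80.4 ± 0.64) and HSPA5 (78.7 ± 1.3) followed and differed by less than the sum of their SDs. The lowest were DNAJC3 (4.42 ± 0.05), DNAJB9 (4.28 ± 0.23) and ERN1 (2.45 ± 0.04), and the spreads of DNAJC3 and DNAJB9 overlapped. A gene can use shorter transcripts than its longest, so this order is approximate. The 9 members that rose had DMSO levels from 4.28 to 295 CPM per kb and the 5 that fell from 4.54 to 251, so both directions spanned abundant and rare transcripts. Of the 32 members, 6 had at least 10% of their exonic length inside another gene's exons: EIF2AK3, PDIA3, PDIA5, PDIA6, DERL3 and OS9. In PDIA5 the overlapping gene, SEC22A, lies on the same strand (12.2%), so reads there cannot be assigned to 1 of them.

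GSK-A1 replicate 2 stood apart from the other treated libraries in these genes. The median over members of the log2 ratio to the DMSO mean was 0.13 in that library, 0.05 in GSK-A1 replicate 1 and 0.01 in GSK-A1 replicate 3, with -0.01 to 0.01 in the DMSO libraries. Replicate 2 was the highest library in all 9 members that rose and the lowest in 2 of the 5 that fell. Without it, all 14 calls were kept and 5 were added, giving 11 members higher and 8 lower, against a share of 28.1% called over all genes in that fit. The members' median was then 0.03.

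The members that rose and those that fell differed in base composition. GC content of the longest transcript was 37.0% to 47.9% (median 41.5%) in the 9 members that rose and 53.0% to 65.5% (median 54.5%) in the 5 that fell, with no overlap, and 37.8% to 58.4% in the 18 not called. The same held across the table, where genes called higher had a median GC content of 43.2% and genes called lower 54.2%. From the bin of 30% to 35% GC to the bin of 70% to 75%, the median log2 fold change of all tested genes ran from 0.09 to -0.11. When each library's trend on GC content was removed, 13 of the 14 calls were kept and SDF2L1 was lost (-0.14, edgeR adjusted p = 0.15). ERN1, SYVN1 and SEC61B were added, which gave 16 members called, 11 higher and 5 lower, against 25.6% of all genes in that fit. The median of the members that rose went from 0.26 to 0.21 and that of the members that fell from -0.22 to -0.14. The part of base composition in the members' changes beyond that fit was not tested.

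**Figure D3:**
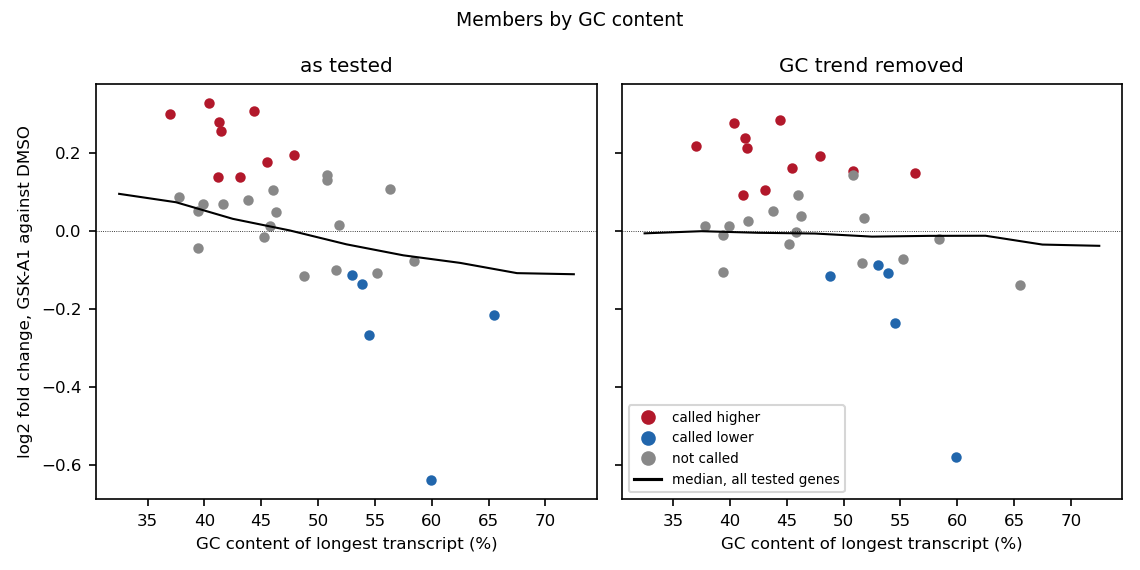
Log2 fold change against GC content (percent) of the longest transcript for the 32 members (points, by call), before and after removal of each library's GC trend, with the median of all tested genes in bins of GC content (line). Before removal the bin medians run from 0.09 to -0.11 and the called members fall on either side of 50% GC, and after it 16 members are called.

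Calls were most stable in 7 members, which were called in the edgeR fit and in all 16 alternative settings: ATF6, EIF2AK3, XBP1, DNAJB9 and ERO1B higher, and CRELD2 and DERL3 lower. The share of all genes called in every setting is not given here, so whether this stability is unusual was not tested. The other 7 called members lost the call in at least 1 setting. Members with a promoter ERSE were found in every class, with 3 of the 8 called higher (ERO1B, HSP90B1 and XBP1), 2 lower (CALR and CRELD2) and 3 not called (CANX, HSPA5 and PDIA6). Over all 28 members with a window, 7 were called higher, 4 lower and 17 not called, and over all genes tested 22.9% were called. Whether the ERSE genes differed from the other members was not tested. Of the 3 genes with an ERSE-II, HERPUD1 rose, SDF2L1 fell and HYOU1 was not called. The fall among the ERSE-II genes rests on SDF2L1, whose call held in 7 of 16 alternative settings.

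**Figure D4:**
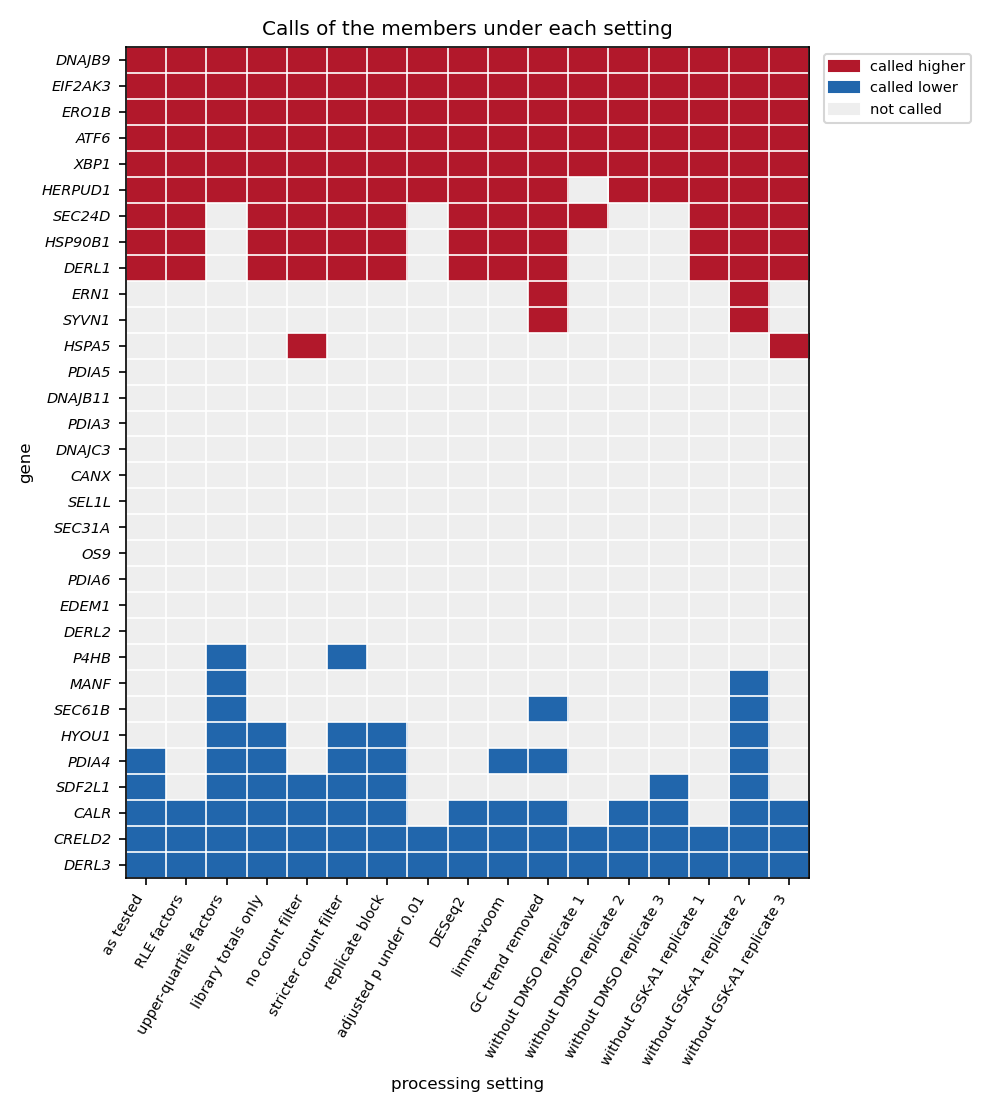
Grid of the 32 members (rows) against the fit as tested and 16 alternative settings (columns). Each cell is coloured by whether the member was called higher, called lower or not called. Rows are ordered by the number of columns called higher minus the number called lower, and then by fold change. The columns hold between 8 and 19 calls, the fewest without DMSO replicate 1 or at an adjusted p under 0.01 and the most without GSK-A1 replicate 2, and 7 members are called in all columns.

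To place the members in their pathway, 88 other genes of ER folding, degradation, translocation and export were read from the same fit, of which 86 were tested. Over all genes 22.9% were called, and at the members' abundance 29.3% (1702 higher and 1027 lower). Of the 86 ER genes, GSK-A1 changed 31 (36.0%), 24 higher and 7 lower, with a median of 0.05 on the log2 scale. Under upper-quartile scaling 25 were called, 14 higher and 11 lower, and the median was 0.0097. The degradation group had 9 of 23 genes higher and none lower, and the folding group 5 of 15 higher and none lower. Glycan processing had 3 higher and 2 lower of 12, the translocon 4 higher and 1 lower of 15, and COPII transport 2 higher and 2 lower of 11. The group of other sensors and their processing had 1 higher and 2 lower of 7. None of the 3 retrieval genes was called. The smallest p-values among the rises were those of YOD1, a deubiquitinase of ERAD (0.50 ± 0.05, edgeR adjusted p = 1.83e-06), TMBIM6, an ER membrane protein that restrains cell death (0.22 ± 0.03, edgeR adjusted p = 8.92e-05), and ERO1A, the paralog of ERO1B (0.36 ± 0.05, edgeR adjusted p = 0.000152). FKBP14, ERP44 and HSPA13, all of ER folding, rose by 0.25, 0.24 and 0.31. Among the falls, MAN1B1, an ER mannosidase, stood at -0.26 ± 0.05 (edgeR adjusted p = 0.00196) and WFS1, the wolframin of the ER membrane, at -0.28 ± 0.07 (edgeR adjusted p = 0.00595). SEC61A2 (a channel subunit), DDOST (of the oligosaccharyltransferase), ATF6B (a paralog of ATF6) and PREB (the exchange factor that starts COPII assembly) fell by 0.22, 0.12, 0.15 and 0.12, and the PREB call held in 4 of 16 alternative settings. With DMSO replicate 1, 2 or 3 left out, 13, 16 and 15 genes of this list were called, against 2163, 2213 and 2206 of all genes. With GSK-A1 replicate 1, 2 or 3 left out, 22, 34 and 30 were called, against 2674, 4890 and 3805 of all genes.

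Downstream of PERK, phosphorylated eIF2α favours translation of ATF4, which induces a known set of genes. In a list of 8 genes of that arm, 5 rose and none fell (62.5%, median 0.17). Over all genes 22.9% were called and 12.0% called higher, and at the members' abundance 29.3% were called (1702 higher and 1027 lower). The list is not limited to genes that ATF4 induces, since it also holds ATF4 itself, EIF2S1 and PPP1R15B, all among those that rose. Each of the 5 that rose was called in all 16 alternative settings, for which no share over all genes is given. PPP1R15B and PPP1R15A encode the regulatory subunits of the phosphatase that acts on eIF2α, and PPP1R15B stood at 139, 143 and 143 CPM with DMSO and at 178, 189.5 and 176 CPM with GSK-A1 (0.35 ± 0.04, edgeR adjusted p = 1.28e-05). PPP1R15A rose by 0.35 ± 0.04 (edgeR adjusted p = 3.28e-05), with no overlap between the groups. The pseudokinase TRIB3 rose by 0.23, ATF4 by 0.14 and EIF2S1, which encodes eIF2α, by 0.20. DDIT3, which encodes CHOP, stood at 17.0, 16.7 and 17.3 CPM with DMSO and at 19.4, 17.6 and 18.7 CPM with GSK-A1 (0.13 ± 0.06, edgeR adjusted p = 0.115). NUPR1 and CHAC1 gave -0.21 ± 0.09 and -0.15 ± 0.07 (edgeR adjusted p = 0.087 and 0.142). These 3 targets were thus not called, whereas the targets PPP1R15A and TRIB3 were.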

How the data were processed

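The authors deposited raw counts per gene, in whole numbers, for the 6 libraries. The submitters' processing notes name cutadapt 5.1, STAR 2.7.11b, featureCounts of Subread 2.1.1, DESeq2 1.38.0 and the build GRCh38.p13. The annotation release, the strand setting and any filter are not given in the sources used here. Groups came from the treatment label. Genes were kept by filterByExpr of edgeR 4.0.16 in R 4.3.3 (minimum count 10, minimum total 15), scaled by TMM and tested with the quasi-likelihood F test. P-values were adjusted by Benjamini-Hochberg over the 16754 genes tested, and a gene was called under 0.05. The script was tested on simulated data. The common biological coefficient of variation was 4.06%.

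Alternatives were other library factors, other count filters, a stricter threshold of 0.01, DESeq2 1.42.0, limma-voom (limma 3.58.1), the replicate number as a block, removal of each library's loess trend on GC content (span 0.3), and leaving out each library. GC content, lengths and overlaps came from GENCODE 29, with GC content for 96.1% of tested genes. Every called member is given with its values by library. Of the wider ER list, the 6 smallest p-values in each direction are named. The members and lists were chosen with earlier results of these data known, so they are no independent support for one another. Counting intervals are not given, because the errors come from replicates.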

Additional observations from a re-analysis of the deposited data

How the results depend on the processing

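Over the 32 members and 16 alternatives, 451 values kept their direction and side of the threshold, 36 lost the call, 18 gained it and 7 turned sign. Calls at an adjusted p under 0.01 numbered 8 members, 13 genes of the wider ER list and 1871 genes in all. Leaving out 1 library at a time gave 8 to 19 members, 13 to 34 genes of the wider list and 2163 to 4890 genes in all. Fits that leave out a library hold 2 libraries in 1 group. The members' median, 0.0679 in the main fit, stayed positive but ranged from 0.0269 to 0.1041 over the alternatives. The lowest value came from upper-quartile scaling and the highest from the fit lacking GSK-A1 replicate 3. Correcting for GC content gave 0.0292, and omitting GSK-A1 replicate 2 gave 0.0339. The members' median had an SD of 0.0615 over the GSK-A1 libraries. That SD is nearly as large as the median, so it cannot show whether the median was stable. The sign turned in 4 members that no alternative called: PDIA6 to -0.0292 under upper-quartile factors and to -0.0031 with the GC trend removed (-0.019 to 0.0553 without 1 library), OS9 to -0.0253 under upper-quartile factors, SEL1L to -0.0122 with the GC trend removed, and EDEM1, at -0.0373 to 0.0073 without 1 library.

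With the replicate number as a replicate block, 15 members were called, 9 higher and 6 lower, with HYOU1 added (edgeR adjusted p = 0.0345), 33 genes of the wider list and 4127 genes in all. Same-numbered libraries deviated from their group means with correlations of 0.011, 0.019 and 0.032, against -0.033 to 0.012 for the other pairs. All of these are small, and whether the numbers pair the samples was not tested. Each DMSO library correlated best with the GSK-A1 library of its own number, whereas GSK-A1 replicate 1 correlated best with DMSO replicate 2 (0.012).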

Other observations

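Values of paralogs in the ER lists are given side by side for families picked after the values were seen. ATF6 rose by 0.28 while ATF6B, which encodes a related membrane-bound factor, fell by 0.15 (edgeR adjusted p = 0.0345). The ATF6B call held in 10 of 16 alternative settings and was lost without DMSO replicate 1 or 3 or GSK-A1 replicate 3. It was also lost under DESeq2 and at the 0.01 threshold. With the GC trend removed ATF6B was not called (-0.0986, edgeR adjusted p = 0.0801), and ATF6 stood at 0.237. Both ER oxidases rose, ERO1A by 0.36 and ERO1B by 0.30. HERPUD2 rose by 0.23 (edgeR adjusted p = 0.00504) beside HERPUD1. EDEM3 rose by 0.21 (edgeR adjusted p = 0.00882), a call lost without DMSO replicate 1 (edgeR adjusted p = 0.0721), whereas EDEM1 and EDEM2 gave -0.02 and 0.07 and were not called. UGGT2 rose by 0.31 (edgeR adjusted p = 0.00751; 0.0514 without DMSO replicate 1) and UGGT1, the main glucosyltransferase that tests glycoprotein folding, gave 0.02 ± 0.04. SEC24A, SEC24B and SEC24D rose by 0.16, 0.17 and 0.18, and SEC24C gave -0.0015 ± 0.04 with overlapping groups. Each of the 3 SEC24 calls was lost without at least 1 DMSO library, with adjusted p-values up to 0.0835, 0.0638 and 0.119. With the GC trend removed the SEC24A call was lost (0.0912, edgeR adjusted p = 0.0501), and those of SEC24B and SEC24D held. Under upper-quartile scaling the calls of SEC24A and SEC24D were lost. Differences between paralogs in their response were not tested.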
